A study of Mus musculus with 24 samples.

Results

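A set of 9 imprinted genes was followed through the nuclei of the mouse amygdala, the brain region best known for fear and reward learning: the long non-coding RNAs Meg3, Rian, Mirg and Kcnq1ot1 and the protein-coding genes Peg3, Ndn, Snrpn, Nnat and Grb10. They were chosen by name, as imprinted genes known from the brain, out of 34039 genes in the RNA table, and every count of theirs was read in every cell type. Nuclei came from adult male mice of the inbred strains DBA and BL6 at 10 to 16 weeks of age, untreated as far as the labels say, with tissue of about 2 animals pooled in each library. Each strain had 2 RNA libraries and 2 ATAC libraries, which measure open chromatin. RNA nuclei were sorted with an antibody to the neuronal protein NeuN towards 75% neurons and 25% other cells, so the share of neurons depended on the sort. ATAC nuclei were sorted on a DNA dye alone. The series' 16 methylation samples, from 8 strains, were not analysed here. Libraries carry the numbers 2 and 3 in the tables and are named by them. Excitatory and inhibitory neurons made up 1514 of 2867 and 4347 of 6276 RNA nuclei in DBA libraries 2 and 3. In BL6 libraries 2 and 3 they made up 4908 of 8079 and 1933 of 4426, so the share of neurons differed between libraries.

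Imprinted genes are expressed mainly from the copy inherited from 1 parent, a choice set by DNA methylation laid down in the egg or the sperm. Meg3, Rian and Mirg lie in a row on distal chromosome 12, are expressed from the maternal copy, and host or neighbour one of the largest microRNA clusters of the mouse. Peg3, Ndn, Snrpn and Nnat are expressed from the paternal copy. Ndn and Snrpn belong to the region on chromosome 7 whose human counterpart is lost in Prader-Willi syndrome, and Kcnq1ot1 is the paternal RNA that silences neighbouring genes elsewhere on chromosome 7. Grb10, on chromosome 11, is expressed from the paternal copy in neurons and from the maternal copy in most other tissues, from different promoters. The mice were inbred, so both parental copies carried the same sequence and the parental origin of the RNA could not be read from these counts.

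Sequences from RefSeq on GRCm38.p6, the assembly of mm10, are shown for the starts that the chromatin results turn on, and all 9 members had an entry. Each is the 250 bases upstream of a start site, written 5′ to 3′ with CpG dinucleotides, the sites that imprinting methylates, in capitals. Snrpn has 4 annotated starts, of which the 3 upstream ones are near copies of each other.
Snrpn, minus strand, chr7:60450178-60450427: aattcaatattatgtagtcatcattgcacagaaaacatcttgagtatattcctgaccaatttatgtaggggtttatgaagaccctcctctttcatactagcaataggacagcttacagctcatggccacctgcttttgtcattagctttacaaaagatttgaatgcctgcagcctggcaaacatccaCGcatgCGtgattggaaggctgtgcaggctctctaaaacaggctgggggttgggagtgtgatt
Snrpn, minus strand, chr7:60140226-60140475: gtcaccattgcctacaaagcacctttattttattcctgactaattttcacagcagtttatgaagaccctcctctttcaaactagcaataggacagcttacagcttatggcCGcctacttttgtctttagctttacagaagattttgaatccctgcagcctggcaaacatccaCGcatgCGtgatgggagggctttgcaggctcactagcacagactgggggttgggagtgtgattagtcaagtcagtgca
Snrpn, minus strand, chr7:60047979-60048228: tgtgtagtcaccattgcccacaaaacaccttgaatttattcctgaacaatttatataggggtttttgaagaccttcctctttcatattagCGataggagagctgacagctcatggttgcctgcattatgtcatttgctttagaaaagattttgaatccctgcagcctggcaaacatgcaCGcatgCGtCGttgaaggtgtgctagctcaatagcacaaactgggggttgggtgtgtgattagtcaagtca
Ndn, plus strand, chr7:62348027-62348276: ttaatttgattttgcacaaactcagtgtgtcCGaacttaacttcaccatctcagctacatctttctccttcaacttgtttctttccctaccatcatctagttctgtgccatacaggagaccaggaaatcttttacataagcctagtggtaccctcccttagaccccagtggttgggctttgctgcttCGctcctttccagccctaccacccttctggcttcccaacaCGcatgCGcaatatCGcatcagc
Grb10, minus strand, chr11:12037421-12037670: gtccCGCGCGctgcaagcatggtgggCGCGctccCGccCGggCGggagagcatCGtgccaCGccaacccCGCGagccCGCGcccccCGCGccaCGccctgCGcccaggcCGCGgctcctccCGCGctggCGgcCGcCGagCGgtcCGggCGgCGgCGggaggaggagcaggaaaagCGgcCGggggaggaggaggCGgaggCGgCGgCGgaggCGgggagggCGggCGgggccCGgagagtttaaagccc
Grb10, minus strand, chr11:12027972-12028221: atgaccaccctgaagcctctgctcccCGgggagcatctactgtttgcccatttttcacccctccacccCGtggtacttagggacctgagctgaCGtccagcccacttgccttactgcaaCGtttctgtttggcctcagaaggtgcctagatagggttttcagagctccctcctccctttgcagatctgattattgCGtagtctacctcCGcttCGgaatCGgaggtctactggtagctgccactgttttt
The 3 Snrpn windows were identical at 86.8%, 84.6% and 83.3% of aligned positions in their 3 pairings, with shared runs of up to 34 bases, whereas each aligned with the window of the start nearest the coding exons over at most 109 positions, at 60.6% to 66.0% identity. Reads from such copies can be hard to place, and how the authors placed them is not given in the sources used here. The upstream Grb10 window held 40 CpG, a number reached by 1.31% of 32851 RefSeq promoter windows of that length, whose median is 6. The downstream Grb10 window held 8 and the Ndn window 5. The sequence TGCCGC, a binding motif of the zinc finger protein ZFP57 that protects imprinted methylation, was searched on both strands. Among the members only the window of the Meg3 start at the 5′ end of the gene held it, as did 8.68% of the 32851 windows.

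The span of Meg3 held 1 annotated microRNA hairpin, that of Rian 3 and that of Mirg 10, with 3, 6 and 19 mature microRNAs. Mature microRNAs are too short to be counted by this assay, which reads the long RNAs that host them. A few from Mirg are shown with the seed (bases 2 to 8) in capitals, because the first pair has the same seed whereas the others differ.
mmu-miR-453: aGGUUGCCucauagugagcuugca
mmu-miR-496a-5p: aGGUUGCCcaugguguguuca
mmu-miR-410-3p: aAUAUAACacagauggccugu
mmu-miR-154-5p: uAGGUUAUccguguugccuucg
Of the 28 mature sequences within these spans, miR-453 and miR-496a-5p were the only ones to share a seed.

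RNA libraries held 30693629 to 66304405 counts in 2867 to 8079 nuclei, over 22 cell types named by the authors, of which 20 had enough nuclei and counts in all 4 libraries to be tested. All 9 members were counted in both strains, and no row stood under an older symbol. Levels are given as CPM, in which the counts of every column are scaled to the same total. Of 44 columns per strain, Ndn was at 0 in 3 DBA columns and 2 BL6 columns, and Mirg, Nnat and Grb10 were at 0 in 1 column each. Because the kit reads RNA from its 3′ end, levels were not divided by gene length, and levels of different genes are not ranked against each other. Whether counting used strand is not given in the sources used here. It is therefore not known whether reads of Kcnq1ot1 were kept apart from those of Kcnq1, which it overlaps in antisense. The same holds for reads of Nnat and of Blcap, the gene in whose intron Nnat lies.

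The authors' cell type names were set against marker genes. Astrocyte markers summed to 7160.0 CPM in NN-Astro, oligodendrocyte markers to 12550.3 in NN-ODC, precursor markers to 2130.2 in NN-OPC and microglial markers to 4298 in NN-MGC, each above the same list in every other type. In NN-Endo-VLMC the endothelial markers Cldn5, Flt1 and Pecam1 summed to 2.23 CPM, with 2 of 3 at 0, while astrocyte markers summed to 642 CPM, neuronal markers to 598 and leptomeningeal markers to 160, so that type is called by its label alone. In NN-VLMC leptomeningeal markers summed to 772 CPM and astrocyte markers to 1325.

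Meg3, a long non-coding RNA of the nucleus, took 1.01% and 1.18% of all counts in DBA libraries 2 and 3, and 1.00% and 0.861% in BL6 libraries 2 and 3. In neurons, the sum of the excitatory and inhibitory types, it stood at 12999.5 and 13561 CPM in DBA and at 11847 and 12125 CPM in BL6. In non-neuronal nuclei it stood at 617 and 1053 CPM in DBA and at 1356 and 662 CPM in BL6. All 4 neuronal values lay far above all 4 non-neuronal ones, and the ratio of the means was 13.7. The log2 difference was 3.97 ± 0.22 (SE, n = 4 libraries, adjusted p = 1.82e-06 by edgeR's quasi-likelihood test with each library as a block).

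The other members differed in size in the same comparison, in which 71.1% of the genes tested were called at an adjusted p under 0.05. Of the 9 members, 8 were higher in neurons and Nnat was lower. Rian and Mirg, the neighbours of Meg3, were higher by 3.86 ± 0.19 and 3.46 ± 0.17 on the log2 scale. Grb10, an adaptor that dampens insulin and growth factor receptors, was higher by 3.40 ± 0.11, with 163 and 167 CPM in DBA neurons and 172 and 161 CPM in BL6 neurons, against 17.8 and 12.8 CPM in DBA non-neuronal nuclei and 17.4 and 20.5 CPM in BL6 ones. Snrpn, a protein of the splicing machinery, was higher by 1.82 ± 0.08, Peg3, a zinc finger protein, by 1.70 ± 0.08 and Kcnq1ot1 by 1.23 ± 0.07.

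Ndn, which encodes the growth suppressor necdin of postmitotic neurons, was the exception among the 8. It had 17.7 and 22.6 CPM in DBA neurons and 16.6 and 12.6 CPM in BL6 neurons, against 9.64 and 16.4 CPM in DBA non-neuronal nuclei and 19.3 and 8.44 CPM in BL6 ones. The ranges overlapped, BL6 library 2 went the other way, and the difference of 0.50 ± 0.16 (adjusted p = 0.0221) lost its call without DBA library 2 (0.0734), DBA library 3 (0.0690) or BL6 library 3 (0.0759), under total-count scaling (0.0772) and without the library block (0.204). Nnat, which encodes the membrane protein neuronatin, ran opposite to its name at this level. It had 207 and 247 CPM in DBA neurons and 192 and 201 CPM in BL6 neurons, against 754 and 737 CPM in DBA non-neuronal nuclei and 490 and 491 CPM in BL6 ones. It was lower in neurons in 4 of 4 libraries, by 1.40 ± 0.12 on the log2 scale (adjusted p = 1.68e-05).

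**Figure D1:**
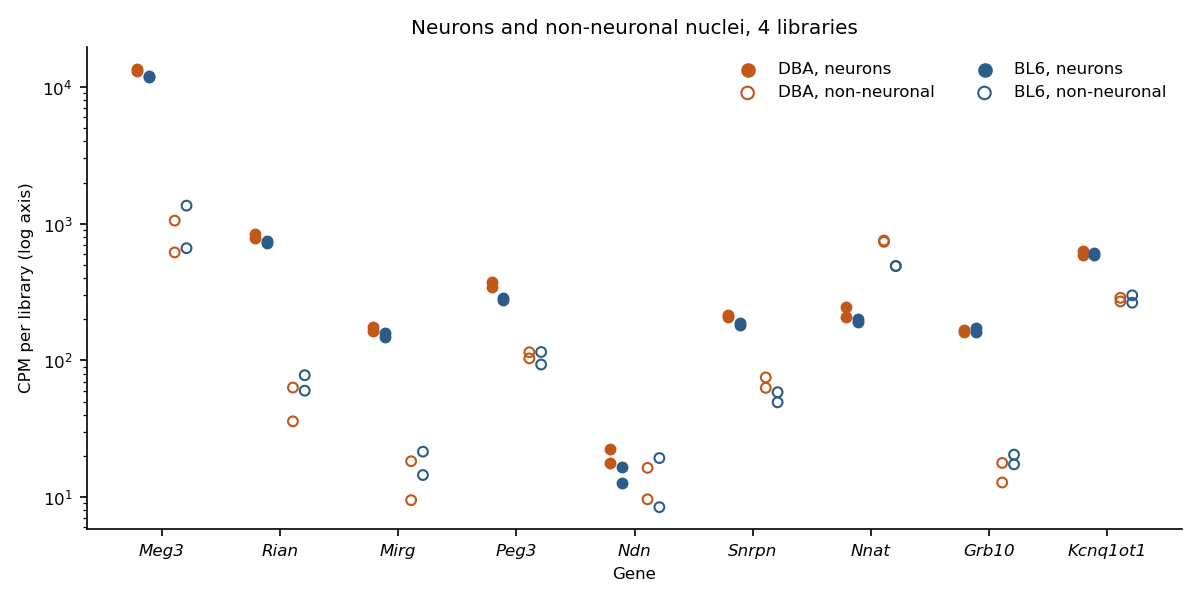
CPM (log axis) of the 9 genes in neurons (filled) and non-neuronal nuclei (open), with 1 point per library and DBA left of BL6. Meg3 stands at 11847 to 13561 CPM in neurons and 617 to 1356 in non-neuronal nuclei, and Nnat is the only gene whose open points all lie above its filled ones.

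The non-neuronal level of Meg3 moved with RNA of neurons in the same columns. The neuronal markers Rbfox3, Snap25 and Syt1, none of them at 0 in the summed class, reached 203 and 263 CPM together in non-neuronal nuclei of DBA libraries 2 and 3, and 400 and 248 CPM in those of BL6 libraries 2 and 3. That was 5.71% and 7.78% of their level in DBA neurons, and 11.2% and 7.04% of their level in BL6 neurons. Meg3 stood at 4.74% and 7.77% of its neuronal level in the DBA libraries, and at 11.4% and 5.46% in the BL6 libraries. The order of the 2 libraries within each strain was the same for Meg3 and for the markers. The part of neuronal RNA in these levels was not tested.

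Across the 6 non-neuronal types that could be tested, the library with the higher marker share also had the higher share of Meg3 in 12 of 12 pairs of libraries of 1 type and strain, and of Mirg in 12. For Rian this held in 9 of 12, and it ran the other way in NN-VLMC of DBA and in NN-OPC and NN-Endo-VLMC of BL6. Peg3 also followed the markers in most pairs, but not in NN-VLMC of DBA (11.9% and 13.5%). No such count was taken for the remaining members or over all genes, so the order cannot be called particular to the chromosome 12 genes. These orders are a description over few columns of shared libraries. Some rest on very few counts: NN-Endo-VLMC of BL6 libraries 2 and 3 had 1 and 2 counts of Mirg and 2 and 9 of Rian. The lowest Meg3 share was 3.06% of the neuronal level, in astrocytes (NN-Astro) of DBA library 2, where the markers were at 3.55%. The highest was 38.4%, in NN-Endo-VLMC of DBA library 3, where the markers were at 38.2%. In DBA library 2 that type had 20.3% for Meg3 and 16.5% for the markers, against 8.70% and 9.63% in BL6 library 2 and 6.33% and 4.80% in BL6 library 3. Grb10 stood apart from the markers in NN-VLMC, at 74.6% to 156% of its neuronal level, where the markers were at 4.72% to 16.8%. In astrocytes it was at 1.97% to 5.62%, and its libraries within each strain had the order of the markers. Mirg in NN-VLMC was at 17.7% in DBA library 3, where the markers were at 5.03%, against 9.62% in BL6 library 2, where they were at 16.8%. These Mirg values rested on 4 counts and 1 count.

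**Figure D2:**
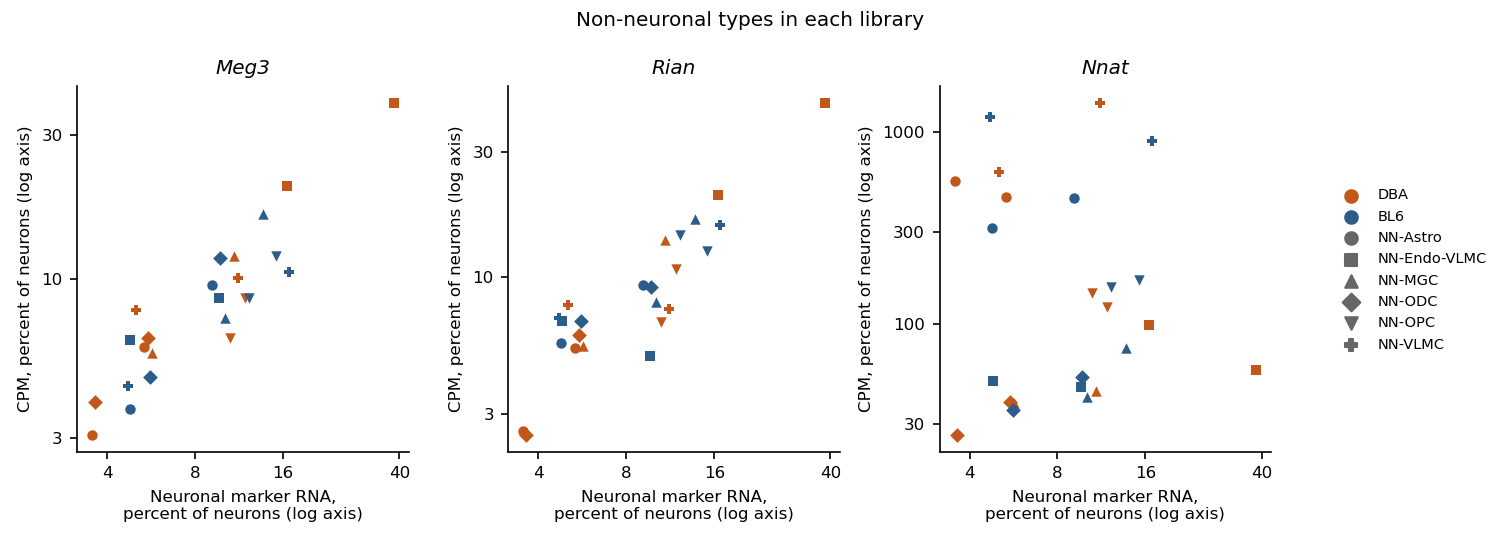
Level of Meg3, Rian and Nnat in 6 non-neuronal types, as percent of the level in neurons of the same library, against the summed neuronal markers in the same unit (both axes log); colour gives the strain and shape the type. Meg3 and Rian points rise with the markers, up to 38.4% for Meg3 at 38.2% for the markers, whereas Nnat lies above its neuronal level in every library of NN-VLMC, NN-Astro and NN-OPC.

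Among neuron types the chromosome 12 genes varied, and mostly rose and fell together. Meg3 ranged from 16001 ± 921 CPM in the excitatory type Exc-Abi3bp to 7983 ± 1406 CPM in Inh-Drd2 (SD over 4 libraries), a 2.00-fold range. In the order of the 20 types only 2 of 19 neighbours did not overlap: Inh-Htr3a at 12155 CPM above Inh-Lamp5 at 9591 CPM, and Inh-Drd2 above the highest non-neuronal type, NN-Endo-VLMC, at 2412 CPM. For every 100 Meg3 counts there were 4.56 to 7.07 Rian counts in DBA excitatory columns, with a median of 5.95, and 5.14 to 7.21 in BL6 ones, with a median of 6.02. In inhibitory columns the medians were 6.18 in DBA and 6.43 in BL6, and in non-neuronal columns 5.94 in DBA and 6.61 in BL6. Single inhibitory columns ran from 5.51 to 8.01 in DBA and from 5.75 to 7.30 in BL6. Mirg gave medians of 1.27 in DBA and 1.24 in BL6 excitatory columns, 1.37 and 1.33 in inhibitory ones, and 1.86 and 1.81 in non-neuronal ones. Its single inhibitory columns ran from 0.982 to 1.65 in DBA and from 1.18 to 1.80 in BL6. Across 20 cell types, log2(CPM + 1) of Meg3 had a Pearson r of 0.997 with Rian and 0.995 with Mirg, and these 2 were the genes most like it among 11015 compared. The points share libraries, depth and the step between neurons and other cells.

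The paternally expressed genes had their own order. Snrpn was highest in the inhibitory types Inh-Lypd6b at 282 ± 37.2 CPM, Inh-Sst at 279 ± 26.5 and Inh-Htr3a at 271 ± 21.4, and lowest among neurons in Exc-Tafa1 at 134 ± 9.63. Peg3 led in the same Inh-Lypd6b at 475 ± 59.6 CPM and Inh-Sst at 449 ± 57.8, and was also lowest among neurons in Exc-Tafa1 at 159 ± 32. Among the 6 tested non-neuronal types Peg3 had its highest mean in astrocytes, at 129 ± 8.15 CPM, above NN-OPC, the oligodendrocyte precursors, without overlap, although NN-Endo-VLMC of DBA library 3 reached 151 CPM. Ndn was highest in Neuronal-Aldoa-Cst3, a type that the authors place in neither neuronal class, at 65.3 ± 37.7 CPM. Its 4 libraries there all lay above those of the next type, Inh-Lypd6b at 34.4 ± 3.28. The DBA columns of Neuronal-Aldoa-Cst3 held only 144014 and 198552 counts of all genes, so Ndn rested on few counts there. Its lowest value there, 41.7 CPM in DBA library 2, lay below 45.1 in Inh-Lamp5 (DBA library 3) and 43.9 in Exc-Tfap2c (DBA library 2).

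Nnat and Grb10 were uneven among the non-neuronal types. Nnat stood at 2153 ± 646 CPM in NN-VLMC, 947 ± 245 in astrocytes and 402 ± 135 in the next type, the excitatory Exc-Tfap2c, and these 3 did not overlap. It was at 311 ± 12.4 CPM in oligodendrocyte precursors and at 81.0 ± 22.2 in oligodendrocytes (NN-ODC), its lowest type. The genes most like it across types were Atp13a5, with a Pearson r of 0.903, and its host gene Blcap, with 0.840. Grb10 was at 217 ± 86.1 CPM in NN-Endo-VLMC and 180 ± 53.6 in NN-VLMC, among the neuron types, which ran from 64.6 ± 9.57 in Exc-Tafa1 to 222 ± 15.2 in Exc-Vwa5b1. In microglia (NN-MGC) it was at 14.5 ± 9.39, in precursors at 6.96 ± 3.56, in oligodendrocytes at 6.27 ± 5.22 and in astrocytes at 6.04 ± 2.85 CPM, each below every column of the 13 tested excitatory and inhibitory types. Kcnq1ot1 was the flattest of the 9, with 661 ± 24.9 CPM in Exc-Vwa5b1 and 175 ± 30.02 in microglia, a 3.77-fold range.

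**Figure D3:**
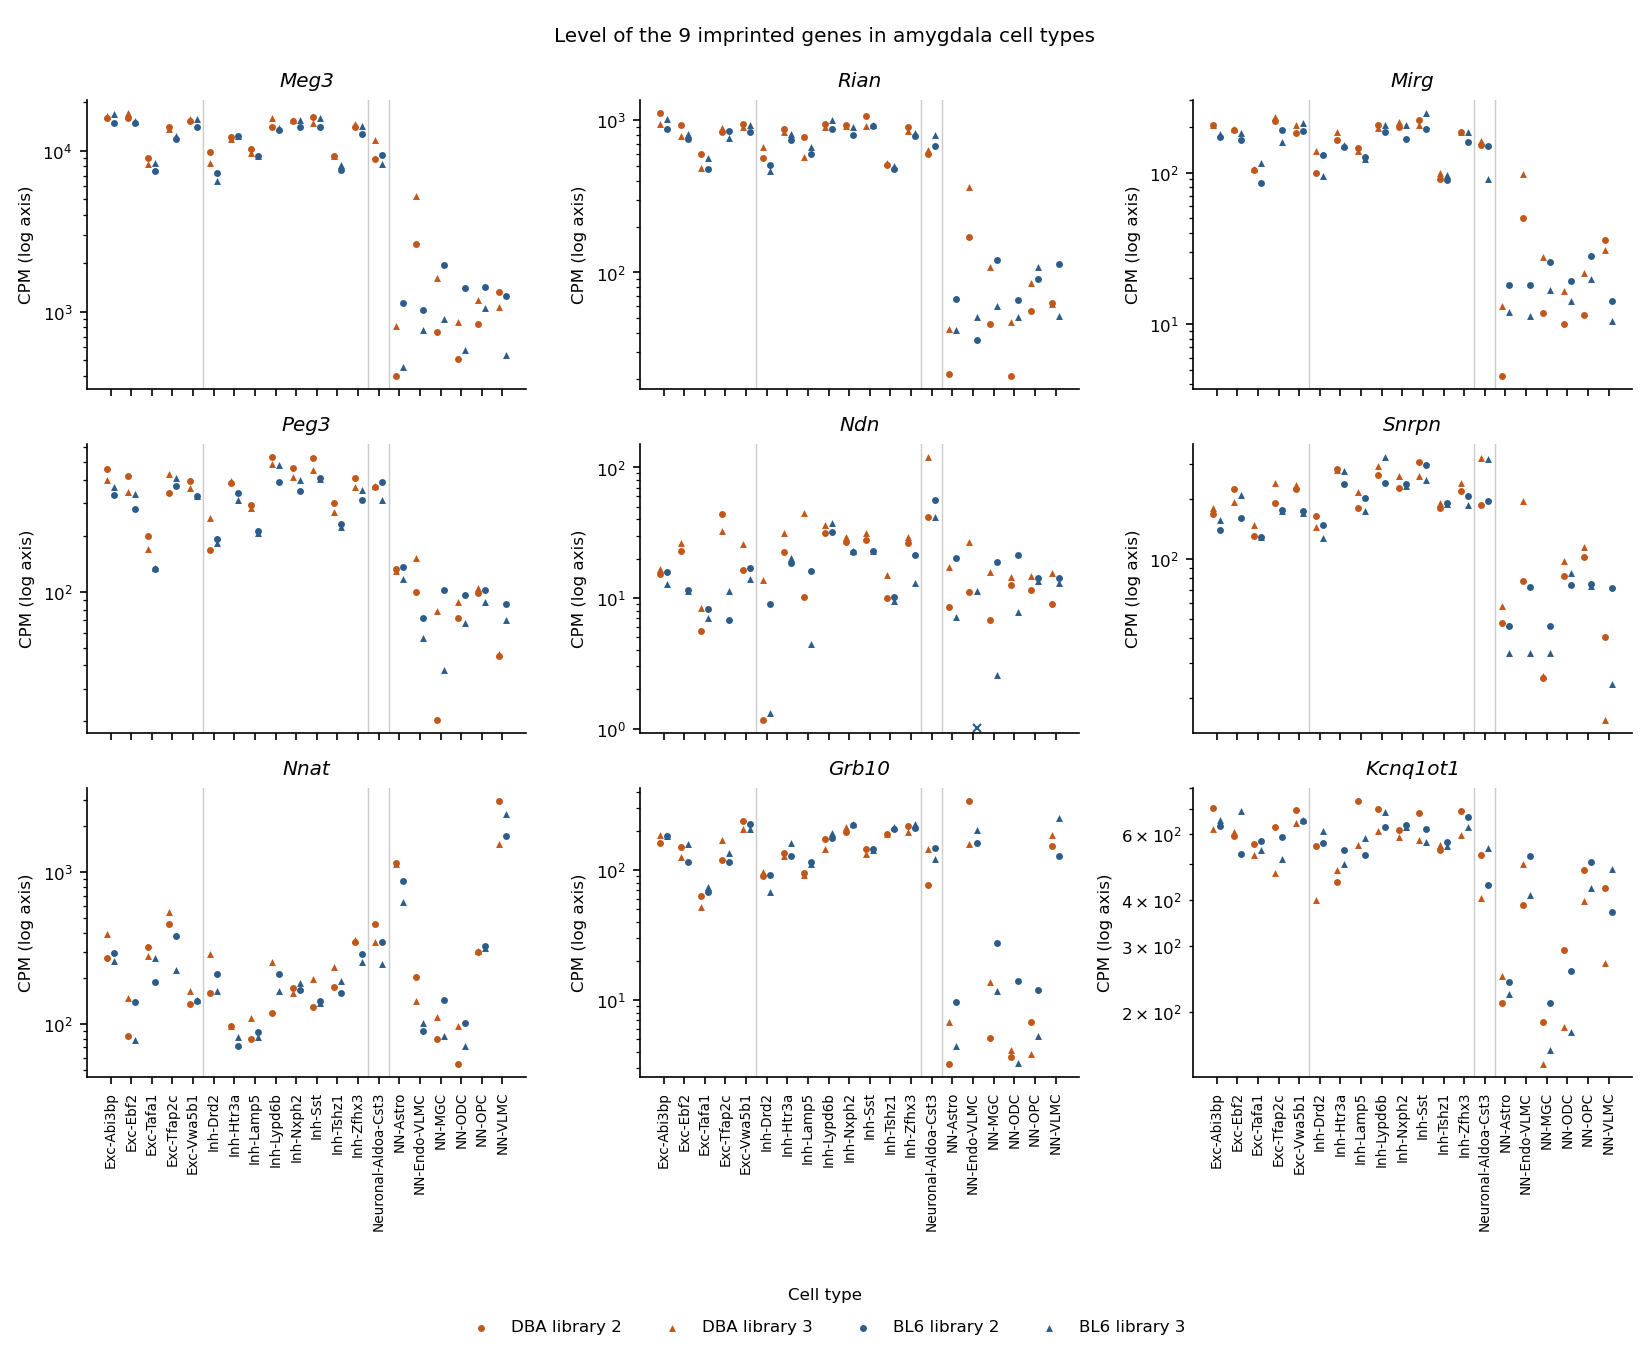
CPM (log axis) of each gene in 20 cell types, with 1 point per library, DBA left of BL6 within each type and a cross at the base for a column at 0; vertical lines part excitatory, inhibitory, unclassed neuronal and non-neuronal types. Meg3, Rian and Mirg share 1 profile with a drop at the non-neuronal types, Nnat peaks in NN-VLMC at 2153 CPM on average, and Grb10 is high in neurons, NN-Endo-VLMC and NN-VLMC but low in the other non-neuronal types.

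Excitatory and inhibitory neurons were compared within each library, a comparison in which 33.5% of genes tested were called. Of the 9 members 5 were called. Snrpn was lower in excitatory neurons, with 174 and 192 CPM in DBA and 150 and 151 CPM in BL6, against 231 and 241 CPM in DBA inhibitory neurons and 225 and 211 CPM in BL6 ones; the groups did not overlap and the log2 difference was -0.41 ± 0.05 (adjusted p = 1.59e-05). Grb10 was lower by 0.31 ± 0.04, Peg3 by 0.25 ± 0.04 and Ndn by 0.53 ± 0.07, each lower in excitatory neurons in 4 of 4 libraries. Nnat was higher by 0.28 ± 0.06 (adjusted p = 0.00461). The calls of Peg3, Ndn and Nnat were lost without the library block (0.391, 0.186 and 0.192). Meg3, Rian, Mirg and Kcnq1ot1 differed by at most 0.06 on the log2 scale and were not called. Meg3, for example, had 12965 and 13724 CPM in DBA excitatory neurons and 11762 and 12275 in BL6 ones, against 13025 and 13399.9 CPM in DBA inhibitory neurons and 11925 and 11966 in BL6 ones.

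Oligodendrocytes were compared with their precursors in the same way, where 53.5% of genes were called and 8 members passed the filter, all but Grb10. Nnat was lower in oligodendrocytes, with 54.3 and 96.9 CPM in DBA and 102 and 71.4 CPM in BL6, against 299.7 and 303 CPM in DBA precursors and 327 and 314 CPM in BL6 ones, a log2 difference of -1.79 ± 0.13 (adjusted p = 4.82e-08). Kcnq1ot1 was lower by 0.86 ± 0.12, again without overlap. Rian was lower by 0.71 ± 0.14 and Meg3 by 0.34 ± 0.13 (adjusted p = 0.0357). The Meg3 call was lost without DBA library 2 (0.133), DBA library 3 (0.0811) or BL6 library 3 (0.243) and by DESeq2 (0.149), and without the library block neither gene was called (Rian 0.0663, Meg3 0.506). Neuronal markers stood at 3.63% and 5.52% of their neuronal level in DBA oligodendrocytes and 9.74% and 5.61% in BL6 ones, against 10.5% and 11.8% in DBA precursors and 15.2% and 12.2% in BL6 ones, and their part in the Meg3 and Rian differences was not tested. The higher sum in precursors came mostly from Snap25, at 33.5% and 32.8% of its neuronal level in DBA precursors and 38.8% and 31.2% in BL6 ones. Rbfox3 stood at 3.16% and 2.61% in DBA oligodendrocytes and 6.70% and 4.77% in BL6 ones, against 2.79% and 3.59% in DBA precursors and 7.74% and 4.97% in BL6 ones.

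DBA was then compared with BL6. Over all nuclei, 24.0% of 25329 genes were called, and 4.88% when the test was restricted to the genes counted in both strains, a group to which all 9 members belong. Of the members only Peg3 was called. It had 314 and 311 CPM in DBA libraries 2 and 3 and 260 and 222 CPM in BL6 libraries 2 and 3. Both DBA values lay above both BL6 values, and the log2 difference was 0.42 ± 0.12 (n = 2 libraries per strain, adjusted p = 0.0373). The call was lost among genes counted in both strains (0.116) and without DBA library 2 (0.196), DBA library 3 (0.203) or BL6 library 3 (0.0844). Without BL6 library 2, which leaves BL6 library 3 alone, the difference was 0.42 for Meg3, 0.38 for Rian, 0.76 for Ndn and 0.44 for Snrpn. With both BL6 libraries it was 0.28, 0.26, 0.41 and 0.30, and none of these was called. For Nnat it was 0.44 with BL6 library 2 alone, and with no filter Nnat was called by edgeR (0.33, adjusted p = 0.0384). A sum over all nuclei cannot tell a change in RNA per nucleus from a change in the shares of cell types. The share of neurons differed between libraries, as given at the start. The sum also shares its counts with the classes and types that follow.

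Peg3 was higher in DBA in both neuronal classes. In excitatory neurons, where 24.3% of genes were called, or 9.67% of those counted in both strains, it had 334 and 317 CPM in DBA and 258 and 242 CPM in BL6, a difference of 0.40 ± 0.10 (adjusted p = 0.00695), lost without BL6 library 3 (0.0571). In inhibitory neurons, where 23.9% were called, or 8.6% of those counted in both strains, it had 409 and 370 CPM in DBA and 316 and 312 CPM in BL6, a difference of 0.33 ± 0.09 (adjusted p = 0.0162), lost without DBA library 2 (0.180) or BL6 library 3 (0.0550). Both DBA libraries lay above both BL6 libraries in 11 of 13 excitatory and inhibitory types, as in 24.0% of tests over all genes in these types and 19.1% of those on genes counted in both strains, and the fitted difference was positive in 13 of 13. Single types were called in Exc-Tafa1, with 199.8 and 169.5 CPM in DBA and 132 and 135 CPM in BL6, and in Inh-Tshz1, with 300.3 and 268 CPM in DBA and 232 and 223 CPM in BL6; either call was lost without DBA library 2 (0.0913 and 0.119). In non-neuronal nuclei Peg3 had 103 and 115 CPM in DBA and 115 and 93.3 CPM in BL6, which overlapped.

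Snrpn was higher in DBA in excitatory neurons, at 174 and 192 CPM in DBA and 150 and 151 CPM in BL6 (0.31 ± 0.10, adjusted p = 0.0304). This call was lost without DBA library 3 (0.175), BL6 library 2 (0.0863) or BL6 library 3 (0.0899), and among genes counted in both strains (0.0619). In the type Exc-Vwa5b1 it had 224 and 235 CPM in DBA and 174 and 171 CPM in BL6 (0.44 ± 0.10, adjusted p = 1.85e-04), a call kept without any single library. In non-neuronal nuclei, where 20.0% of genes were called, or 8.25% of those counted in both strains, Snrpn had 63.0 and 75.1 CPM in DBA and 58.5 and 49.4 CPM in BL6 (0.47 ± 0.14, adjusted p = 0.0338), lost without DBA library 2 (0.0566), DBA library 3 (0.295) or BL6 library 3 (0.0965), by DESeq2 (0.0539), among genes counted in both strains (0.0613) and under total-count scaling (0.103). Oligodendrocyte precursors held their call without any single library, at 102 and 116 CPM in DBA and 74.6 and 72.9 CPM in BL6 (0.63 ± 0.15, adjusted p = 0.00263), but not by DESeq2 (0.0549).

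Ndn was called in inhibitory neurons, with 21.2 and 26.7 CPM in DBA and 19.3 and 15.2 CPM in BL6 (0.47 ± 0.16, adjusted p = 0.0475), and the call was lost without DBA library 3 (0.369) or BL6 library 3 (0.196), by DESeq2 (0.0720), under total-count scaling (0.0585) and among genes counted in both strains (0.10). In excitatory neurons it had 12.8 and 18.4 CPM in DBA and 13.6 and 10.2 CPM in BL6, which overlapped and was not called. The difference there was 0.60 with DBA library 3 alone and 0.65 with BL6 library 3 alone.

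Nnat had the largest called strain difference of the 9 in any class. In non-neuronal nuclei it had 754 and 737 CPM in DBA and 490 and 491 CPM in BL6, a log2 difference of 0.72 ± 0.10 (adjusted p = 4.18e-04), a call kept without any single library. The mix of types in this sum moved with strain: oligodendrocyte markers summed to 2005 and 1812 CPM in DBA and 3088 and 2366 CPM in BL6, and astrocyte markers to 3832 and 4051 CPM in DBA and 3174 and 3939 CPM in BL6. Nnat is high in astrocytes and low in oligodendrocytes, and the part of this mix in the difference was not tested. Within types, in astrocytes it had 1147 and 1139 CPM in DBA and 868 and 635 CPM in BL6 (0.74 ± 0.14, adjusted p = 4.79e-04). In the other 5 tested non-neuronal types it was not called. The differences there were -0.017 ± 0.11 in precursors, where both DBA libraries lay below both BL6 libraries, -0.084 ± 0.23 in oligodendrocytes, -0.24 ± 0.26 in microglia, 0.18 ± 0.35 in NN-VLMC and 0.95 ± 0.45 in NN-Endo-VLMC. In neurons as a whole it had 207 and 247 CPM in DBA and 192 and 201 CPM in BL6. It was not called in either neuronal class, except in excitatory neurons with no filter (0.30, adjusted p = 0.0191). Its difference was 0.39 in excitatory neurons with BL6 library 2 alone. In inhibitory neurons it was 0.36 with DBA library 3 alone. The difference between the strain effects, neurons minus non-neuronal nuclei, was -0.51 ± 0.11 on the log2 scale (adjusted p = 0.0191, edgeR interaction with the library as a block), where 4.49% of genes were called. It was the only member called in that test. The call was lost without DBA library 2 (-0.38, adjusted p = 0.231) or DBA library 3 (-0.64, 0.0618) and when libraries were scaled by total counts alone (-0.39, 0.0703). Between excitatory and inhibitory neurons no member's strain effect was called to differ by edgeR, and 0 of 9 had an unadjusted p under 0.05 (0.0266% of genes were called).

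**Figure D4:**
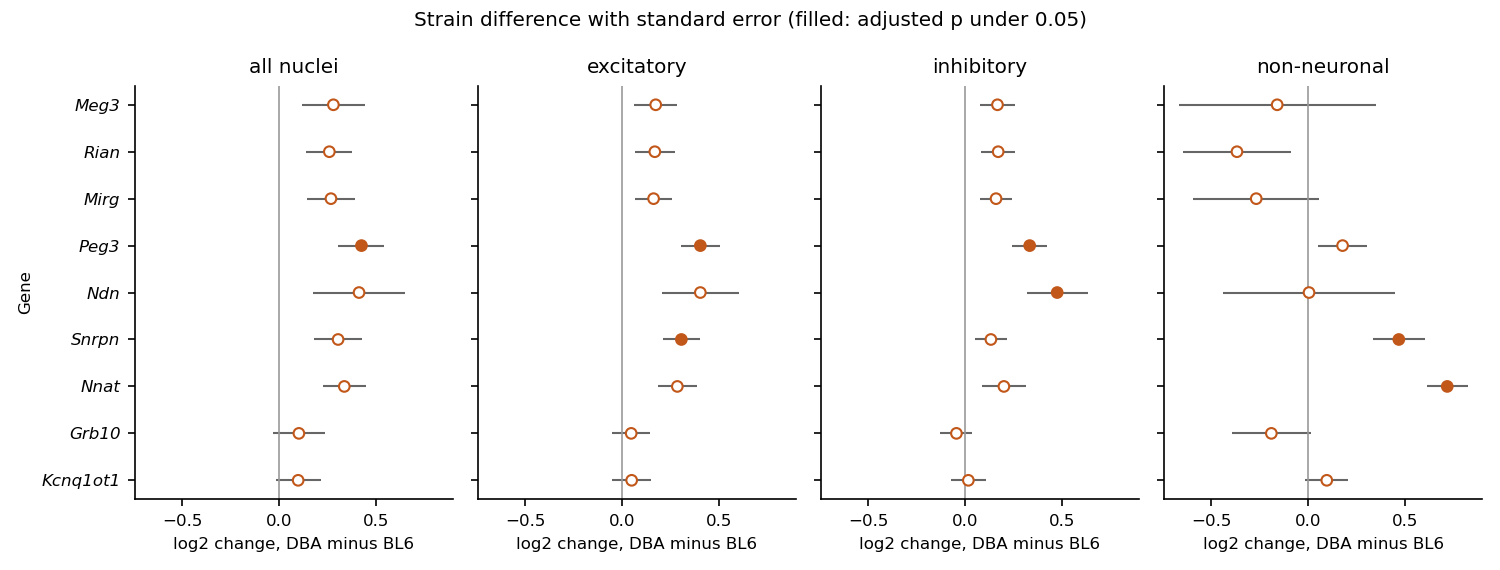
Log2 difference, DBA minus BL6, with its standard error for each gene over all nuclei and in 3 classes; filled points passed an adjusted p of 0.05. Peg3 is filled in 3 panels at 0.33 to 0.42, Nnat and Snrpn are filled in non-neuronal nuclei at 0.72 and 0.47, and Grb10 lies between -0.19 and 0.10.

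Meg3, Rian, Mirg, Grb10 and Kcnq1ot1 were not called over all nuclei or in any class, by edgeR or DESeq2, and 0 of these 20 edgeR tests had an unadjusted p under 0.05. With single libraries left out, Meg3 and Rian were called over all nuclei as given above, and Rian was called lower in DBA non-neuronal nuclei without DBA library 3 (-0.83, adjusted p = 0.0314). The difference of Meg3 in excitatory neurons was 0.17 ± 0.11 (adjusted p = 0.351). Its values, given above, were higher in both DBA libraries than in both BL6 libraries, as were those of Rian and Mirg in both neuronal classes. Such an order is common: in single neuron types it held in 24.0% of tests over all genes and 19.1% of those on genes counted in both strains. The share over all genes in the class sums was not taken. Grb10 had 175 and 187 CPM in DBA inhibitory neurons and 191 and 188 CPM in BL6 ones (-0.05 ± 0.08). Kcnq1ot1 had 623 and 580 CPM in DBA inhibitory neurons and 618 and 589 CPM in BL6 ones (0.02 ± 0.09), a sign that turned under total-count scaling (-0.0040). The median difference of the 9 members was 0.28 over all nuclei, 0.17 in excitatory, 0.17 in inhibitory and 0.004 in non-neuronal nuclei, against 0.04, 0.04, 0.04 and 0.03 for all genes tested. For genes counted in both strains the medians were -0.011, -0.0019, -0.0032 and -0.0095. For the other imprinted genes, described below, they were 0.057, 0.042, 0.010 and -0.063.

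In single types, 10 of 170 tests of members were called, all higher in DBA, where 12.8% of tests over all genes were called and 8.05% were called higher. Among genes counted in both strains 9 of the 170 were called, all higher, where 2.17% of tests were called higher. Besides those given above these were Nnat in Inh-Zfhx3, Meg3 in Inh-Tshz1, Snrpn in astrocytes, and Meg3 and Rian in NN-Endo-VLMC. Nnat in Inh-Zfhx3, with 349 and 355 CPM in DBA and 287 and 256 CPM in BL6, lost its call without DBA library 2 (0.0817), DBA library 3 (0.113) or BL6 library 3 (0.138) and by DESeq2 (0.0693). Snrpn in astrocytes, with 48.0 and 57.9 CPM in DBA and 45.9 and 33.6 CPM in BL6, lost its call without DBA library 2 (0.0790), DBA library 3 (0.266) or BL6 library 3 (0.216), by DESeq2 (0.154), under total-count scaling (0.117) and among genes counted in both strains (0.0513). In Inh-Tshz1 Meg3 had 9233 and 9206 CPM in DBA and 7539 and 8189 CPM in BL6 (0.27 ± 0.08, adjusted p = 0.0162), lost without DBA library 2 (0.131), DBA library 3 (0.0898) or BL6 library 2 (0.175). In NN-Endo-VLMC Meg3 had 2639 and 5211 CPM in DBA and 1031 and 767 CPM in BL6 (2.28 ± 0.42, adjusted p = 0.00564). Rian had 172 and 365 CPM there in DBA and 36.2 and 50.8 CPM in BL6, a call lost without DBA library 3 (0.0526). The Meg3 values rested on 477 and 585 counts in DBA and 57 and 136 counts in BL6. The Rian values rested on 31 and 41 counts in DBA and 2 and 9 counts in BL6. The columns held only 27 and 18 nuclei in DBA and 10 and 35 in BL6. Neuronal markers in those columns summed to 586 and 1292 CPM in DBA and to 344 and 169 CPM in BL6, and their part in the Meg3 difference was not tested.

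Chromatin at the members was read from ATAC peaks within 2 kb of each gene, 83 in all. Non-neuronal nuclei made up 67 of 3694 and 135 of 4541 ATAC nuclei in DBA libraries 2 and 3. In BL6 libraries 2 and 3 they made up 79 of 3941 and 167 of 6943, so the sums over all nuclei were mostly neurons. Over all nuclei, 6.44% of 271420 peaks were called between the strains, and of the 83 there were 4 higher and 6 lower in DBA. All 10 lay at Ndn or Snrpn; none of the 7 at Meg3, 11 at Rian, 3 at Mirg, 6 at Peg3, 2 at Nnat, 23 at Grb10 and 10 at Kcnq1ot1 was called by edgeR or DESeq2, and 6 of these 62 had an unadjusted p under 0.05 by edgeR. In excitatory neurons 7 peaks were called and in inhibitory neurons 6, all at the same pair of genes, where 4.93% and 3.47% of all peaks were called. In non-neuronal nuclei, with 15 of the 83 testable, none was called by edgeR or DESeq2 and 4 had an unadjusted p under 0.05 by edgeR; of all peaks there, 0.192% were called by edgeR.

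The Ndn peak covers the promoter window printed above, at chr7:62347930-62349346. It had 11 and 11.2 ATAC CPM in DBA libraries 2 and 3 and 7.45 and 8.09 in BL6 libraries 2 and 3, a log2 difference of 0.56 ± 0.11 (adjusted p = 5.74e-06, lost without BL6 library 2 at 0.0714). In inhibitory neurons, the class in which Ndn RNA was called higher in DBA, the peak had 12.6 and 12.8 CPM in DBA and 8.01 and 9.24 CPM in BL6 (0.58 ± 0.12, adjusted p = 4.38e-04), lost without BL6 library 2 (0.184). In excitatory neurons, where the Ndn RNA values of the strains overlapped, the peak had 9.76 and 9.90 CPM in DBA and 7.18 and 7.33 CPM in BL6. Of the 2 peaks at Ndn, 1 was called higher in DBA there too, so the chromatin difference was not confined to the class of the RNA call. RNA and chromatin at Ndn came from different nuclei, with 2 libraries per strain each.

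At Snrpn the differences lay far upstream of the coding exons. The peak over the start nearest those exons, chr7:60002674-60005262, had the most counts at the gene and was not called (adjusted p = 0.794), with 23.8 and 24.3 CPM in DBA and 22.2 and 24.6 CPM in BL6. From 238 to 288 kb upstream of that start, 3 consecutive peaks had no count in either DBA library. The first, chr7:60243401-60244571, had 472 and 577 counts in the BL6 libraries and was at least 322-fold lower in DBA, against a floor of 3 counts over the strain. The second, chr7:60271326-60272278, had 258 and 279 BL6 counts and was at least 165-fold lower. The third, chr7:60293154-60293567, had 88 and 79 and was at least 51.3-fold lower. Across the whole table, 287 of 271433 peaks had 0 DBA counts and 100 or more BL6 counts. A peak of 34 BL6 counts at chr7:60060737-60060939 was at 0 in DBA too.

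Nearby peaks differed in either direction. The peak over the upstream start at 60140225, whose window is printed above, was higher in DBA, at 3.16 and 2.93 CPM in DBA and 1.77 and 1.84 CPM in BL6 (0.80 ± 0.16, adjusted p = 1.29e-05), and by 1.38 ± 0.21 in excitatory neurons. The peak over the start at 60047978, a near copy of it, had 4.09 and 3.79 CPM in DBA and 4.76 and 5.004 CPM in BL6 and was not called. The peak at chr7:60390797-60391628 was lower in DBA, at 4.28 and 3.70 CPM in DBA and 9.11 and 9.42 CPM in BL6 (-1.17 ± 0.11, adjusted p = 1.35e-21). Snrpn RNA was not lower in DBA in any class. The part of the mm10 reference, which is the BL6 sequence, and of read placement in these repeated windows was not tested.

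**Figure D5:**
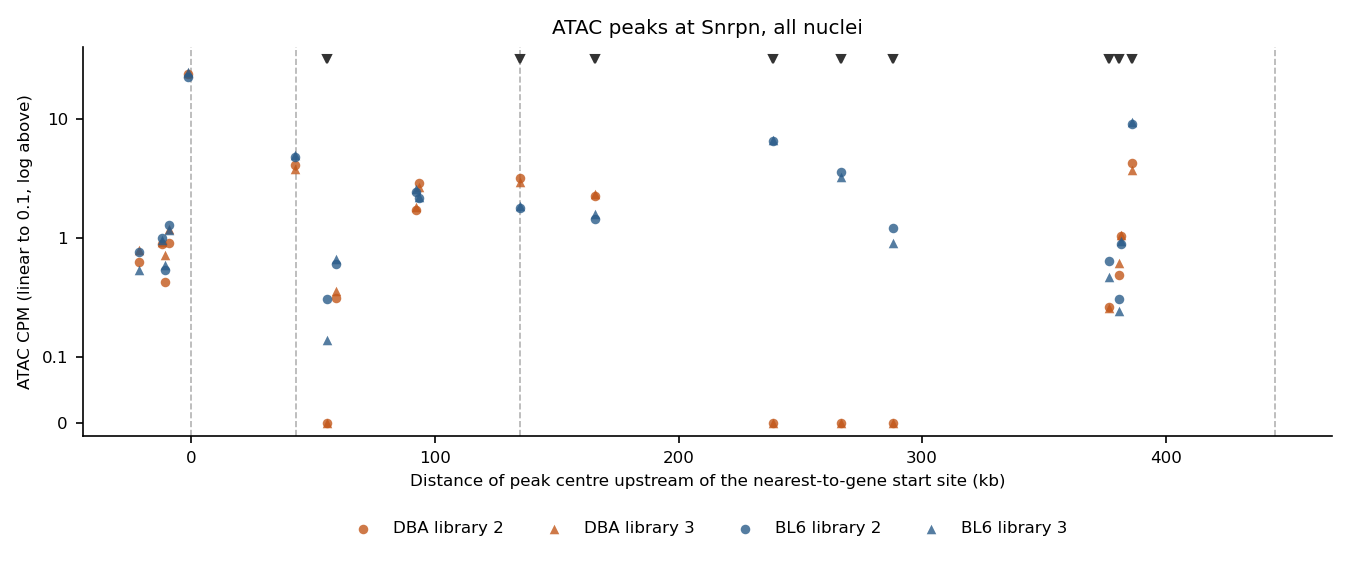
ATAC CPM of the 19 peaks at Snrpn (linear to 0.1 and log above) by distance upstream of the start nearest the coding exons; dashed lines mark the 4 annotated starts and triangles at the top the 9 peaks called between strains. The peak at the start itself is at 22.2 to 24.6 CPM in all 4 libraries, whereas 4 upstream peaks lie at 0 in DBA.

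Starts of the other members were not called between strains and were uneven between genes. Peaks covered the start windows of Meg3 (12.8 and 12.1 CPM in DBA, 13.2 and 12.1 in BL6), Peg3 (20.6 and 19.6 in DBA, 18.5 and 19.9 in BL6), Nnat and Kcnq1ot1, and no peak covered those of Rian and Mirg. At Grb10 the CpG-dense upstream window lay under a peak of 1.69 and 1.40 CPM in DBA and 1.55 and 1.83 in BL6. The downstream window lay under a small peak of 2.81 and 2.83 CPM in DBA and 2.58 and 2.76 in BL6, beside the broad peak chr11:12024987-12027306, with 37.4 and 38.6 CPM in DBA and 37.6 and 39.2 in BL6. The 2 windows are the last 2 promoter sequences printed above. Per kilobase the broad peak averaged 16.4 CPM in DBA and 16.6 in BL6, the highest of the 23 peaks at the gene over all nuclei. In non-neuronal nuclei it averaged 9.36 in DBA and 10.7 in BL6, below the peak at chr11:11973248-11973695 with 20.3 in DBA and 25.8 in BL6. The non-neuronal sums held only 67 and 135 nuclei in DBA and 79 and 167 in BL6, so this order rests on few counts.

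Other imprinted genes were counted from a list of 61, of which 58 had a row and 53 were tested over all nuclei. There 4 were higher and 3 lower in DBA, a share of 13.2%, beside 24.0% for all genes. When the test was restricted to genes counted in both strains, 4.88% of all genes were called. Of the 58 listed genes with a row, 51 were counted in both strains. The calls most often repeated over cell types were at Commd1, a regulator of copper and NF-kB imprinted in brain, lower in 13 types by 2.32 to 3.89 on the log2 scale, and at Zrsr1, the paternally expressed gene within its intron, higher in 10 types by 0.98 to 1.77. Over all nuclei Commd1 averaged 3.88 ± 0.38 CPM in DBA and 31.7 ± 3.28 in BL6 (adjusted p = 1.24e-05), and Zrsr1 33.7 ± 2.51 CPM in DBA and 14.1 ± 0.33 in BL6 (adjusted p = 1.49e-04). Ube3a, the Angelman syndrome ubiquitin ligase that is expressed from the maternal copy in neurons, had 1221 and 1316 CPM in DBA and 2357 and 1769 CPM in BL6 (-0.66 ± 0.17, adjusted p = 0.0258), lost without DBA library 2 (0.254) or DBA library 3 (0.187) and among genes counted in both strains (0.0964), and was lower in 13 types. Snhg14, the long antisense transcript that runs from Snrpn into Ube3a, was called higher in 1 type and lower in 4. Slc38a4, an amino acid transporter, was higher in 7 types and averaged 3.67 ± 0.36 CPM in DBA and 0.842 ± 0.15 in BL6. Begain, next to Meg3's cluster, was called over all nuclei at 33.5 ± 1.28 CPM in DBA and 24.2 ± 2.20 in BL6 (0.51 ± 0.12, adjusted p = 0.020), lost without DBA library 2 (0.0699), DBA library 3 (0.147) or BL6 library 3 (0.0804) and among genes counted in both strains (0.0729). Igf2 was at 0 in both DBA libraries, against 111 and 152 counts in BL6. Zfp264 was counted 33 and 57 times in DBA and was at 0 in both BL6 libraries. These 2 were counted in 1 strain only, so their calls cannot be told apart from a difference in the gene sets counted.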

How the data were processed

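RNA and ATAC were measured in 4 libraries each, 2 per strain, in single nuclei. The deposited values are counts of RNA molecules per gene and counts per ATAC peak, already added up by the authors within every cell type and library. Counts of nuclei for each such column were deposited too. Per the submitters' processing notes, tools included Seurat 4.0.5, Cell Ranger 6.0.2 (RNA) and Cell Ranger ATAC 2.0.0, with the build mm10. The gene annotation of each strain, the filters on nuclei, the treatment of doublets, the peak caller and what 1 ATAC count stands for are not given in the sources used here.

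Columns were summed over all nuclei and over classes, and CPM used each column's total. Types needed 10 nuclei and 50000 RNA counts in every column, which left out Exc-Strip2 and NN-Endo-SMC-Peri. Differences were tested with edgeR 4.0.16 (robust quasi-likelihood test, TMM factors, filterByExpr at a minimum count of 10) on the whole table, with Benjamini-Hochberg adjustment over all features; adjusted p under 0.05 was called. Strain was tested with 2 libraries against 2. Classes and types were compared within libraries, with the library as a block. A gene was held to be counted in both strains from 10 counts per strain upwards. SD is over libraries, and SE is that of the fitted log2 difference. Floors of 3 counts cover counting error only. As alternatives, DESeq2 1.42.0 replaced edgeR, RLE factors or plain totals replaced TMM, the filter was dropped, genes were limited to those counted in both strains, blocks were changed and each library was left out. In the strain tests, leaving out a library left its strain with a single library, so the spread came from the other strain alone. The scripts were tested on simulated data with 200 changed features.

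The members, lists and rules were chosen with earlier results of these data known. The rule for named genes took all 9 members, the other imprinted genes called over all nuclei or in 5 or more types, the 2 genes most alike to each member and, at most 4 per member, the called peaks; the other Snrpn peaks given were chosen after their values were seen.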

Additional observations from a re-analysis of the deposited data

Results flagged for a closer look

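The strain difference of Nnat over the class sums was larger in non-neuronal nuclei than in neurons, and the difference between the 2 classes was itself tested. As neurons minus non-neuronal nuclei it was -0.51 on the log2 scale (edgeR interaction, adjusted p = 0.0191). Nnat had 754 and 737 CPM in DBA and 490 and 491 CPM in BL6 non-neuronal nuclei. In neurons it had 207 and 247 CPM in DBA and 192 and 201 CPM in BL6. The call was lost without DBA library 2 (adjusted p = 0.231), without DBA library 3 (0.0618) and under total-count scaling (0.0703), with the same direction in each.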

How the results depend on the processing

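Over 91 results on named genes and peaks, 938 alternative values were computed, of which 814 kept the direction and the side of the threshold, 84 lost a call, 18 gained one and 22 changed sign. Restricting the test to genes counted in both strains left 1033 calls over all nuclei (6073 before), 1754 in excitatory, 1585 in inhibitory and 1416 in non-neuronal nuclei and 12203 summed over types (28655 before). With no filter, 46579 were called over types and 28 in the interaction of excitatory minus inhibitory (6 before). DESeq2 called 7144 ATAC peaks (17470 by edgeR). Strain calls were lost among genes counted in both strains for Peg3 over all nuclei (0.42), Snrpn in excitatory neurons (0.31), Ndn in inhibitory neurons (0.47) and Snrpn in non-neuronal nuclei (0.47). Ndn in inhibitory neurons also lost its call under total counts (0.46) and DESeq2 (0.48), as did Snrpn in non-neuronal nuclei (0.36 and 0.48). Total counts ended the call of Ndn in neurons over non-neuronal nuclei (0.38) and of the Nnat interaction (-0.39). Signs turned under total counts for Kcnq1ot1 in inhibitory (-0.0040) and non-neuronal nuclei (-0.016), Ndn in non-neuronal nuclei (-0.11, and -0.0059 with no filter) and Snrpn in oligodendrocytes over precursors (-0.089). Without the library block 2856 genes were called between excitatory and inhibitory neurons (7006 with it), and calls were lost for Peg3 (-0.25), Ndn (-0.54) and Nnat (0.29) there, Ndn in neurons over non-neuronal nuclei (0.49), and Meg3 (-0.26) and Rian (-0.70) in oligodendrocytes over precursors; DESeq2 also lost Meg3 (-0.35). The cause of these shifts was not tested.

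Leaving out each library in turn gave 2512 to 4624 calls in non-neuronal nuclei, 10 to 18 member calls over types, 210 to 1285 and 1 to 28 calls in the 2 interactions, 8779 to 19857 ATAC peaks and 5 to 10 at the members. DBA minus BL6 ran from 0.29 to 0.57 for Peg3 over all nuclei, 0.35 to 0.46 in excitatory and 0.25 to 0.41 in inhibitory neurons, from 0.25 to 0.36 for Snrpn in excitatory neurons and 0.34 to 0.59 in non-neuronal nuclei, and from 0.31 to 0.68 for Ndn in inhibitory neurons. It ran from -0.059 to 0.29 for Grb10 over all nuclei, -0.031 to 0.13 in excitatory and -0.45 to 0.028 in non-neuronal nuclei. For Kcnq1ot1 it ran from -0.0091 to 0.21 over all nuclei, -0.025 to 0.13 in excitatory and -0.047 to 0.078 in inhibitory neurons. In non-neuronal nuclei it ran from -0.46 to 0.73 for Ndn, -0.59 to 0.45 for Meg3 and -0.81 to 0.13 for Mirg. Snhg14 ran from -0.32 to 0.016 over all nuclei and the Ndn peak from 0.49 to 0.64. The Nnat interaction ran from -0.64 to -0.38. Neurons over non-neuronal nuclei gave 0.37 to 0.72 for Ndn, excitatory over inhibitory -0.012 to 0.00025 for Mirg, and oligodendrocytes over precursors -0.49 to -0.20 for Meg3, -0.046 to 0.48 for Ndn and -0.00024 to 0.14 for Snrpn.

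No label links same-numbered libraries beyond their number. Their deviations from the strain means correlated at -0.403 over all nuclei, -0.092 in excitatory, 0.005 in inhibitory and -0.065 in non-neuronal nuclei. With 2 libraries per strain, these values cannot show whether such libraries were handled together. With the library number as a replicate block, 5263, 4880, 5134 and 3680 genes were called in these 4 sums, 28865 over types, 14 for members over types, 15531 ATAC peaks and 8 at the members, and Peg3 over all nuclei (0.43), Ndn in inhibitory neurons (0.47) and Snrpn in non-neuronal nuclei (0.47) were not called. A crossed replicate block, added after seeing the data, gave 7597, 5391, 4957 and 4220 calls in the same sums, of which 5, 3, 2 and 2 were members, against 1, 2, 2 and 2 with no such block.

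With 2 libraries per strain from pooled animals, p-values measure the spread between these libraries alone.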
